A study of Mus musculus with 3 samples.

Results

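The dermal papilla is the knot of mesenchymal cells at the base of each hair follicle. It signals to the epithelium through Wnt, FGF and BMP ligands and their inhibitors, and in anagen it sits beside the melanocytes that pigment the hair shaft. Chromatin that a transposase can cut marks promoters and enhancers that a cell type keeps accessible, so open regions at papilla genes can mark papilla nuclei even where no RNA was measured.

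The nuclei described here were open at genes that are used as dermal papilla markers. They were chosen from single-nucleus ATAC-seq of GFP-positive nuclei sorted from mouse back skin after removal of the fat layer. The mice were Dct-rtTA; Tre-H2B-GFP animals, so that under doxycycline any cell using the Dct promoter makes a GFP-tagged histone. All mice carried both transgenes and all had 5 days of doxycycline in the drinking water. The anagen nuclei came from 8 mice depilated with a hair removal cream, the UVB nuclei from 24 mice irradiated 3 times over a week at 2.2 mJ/cm2, and the telogen nuclei from 12 mice without depilation or UVB. The labels give the age as 8 weeks in one field and 7 weeks in another. Each condition was a pool of mice and counts as 1 sample. Anagen and telogen nuclei share 1 of the study's samples and UVB nuclei come from 2 others. The titles name these 2 UV_PoolA and UV_PoolB, and they are taken here as technical replicates of a single pool. An effect of UVB and one of the library therefore cannot be told apart. The Dct promoter is used by melanocytes, and the labels do not say how fibroblast nuclei came to pass the sort.

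A nucleus was kept if it had 3 or more open regions within the bodies of Alx4, Tnn, Dkk2, Lrrc15, Fgf10, Cmklr1, Corin and Myoz3 plus 2000 bp at both ends, and if its share of open regions there was at least 3 times the 0.01186% of all nuclei pooled. These values of the same nuclei made the choice, so the opening of the 8 markers is not a finding. This gave 131 of 12348 nuclei, of which 38 were from anagen, 81 from UVB and 12 from telogen. They are set against 1381 other fibroblast nuclei, which were open at Col1a2 or Pdgfra and failed the rule, 526 from anagen, 653 from UVB and 202 from telogen. A stricter comparison took the 372 of these with 2 or more open regions at Col1a2 and Pdgfra and 3 times the pooled share there.

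Before selection, barcodes repeated within a condition were counted once. Second copies made up 31.44% of the deposited anagen barcodes, 0.937% of the UVB barcodes and 21.006% of the telogen barcodes. Another 506 barcodes occurred in more than 1 condition and were kept, and 9 of the 131 nuclei have such a barcode. The nuclei passing the rule were deep, with a median of 3297 open regions, against 1928 in other fibroblast nuclei, 2718.5 in the stricter comparison and 934.5 over all nuclei. Of the 131, 61.8% had more than 3 times the median count of their condition, against 35.6% of other fibroblast nuclei and 11.5% of all nuclei. No doublet caller was run, and the part of doublets in these deep nuclei was not tested. The 3 sums held 234381 counts in anagen, 589072 in UVB and 74611 in telogen.

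The values in this paragraph chose the nuclei and are a description. Cmklr1, the receptor of the chemoattractant chemerin, was open in 80.9% of the 131 nuclei and in 12.02% of other fibroblast nuclei. Dkk2, a secreted modulator of Wnt signalling, was open in 51.1% and 7.39%. The matrix protein gene Tnn was open in 29.8% and 3.26%, and the window of Myoz3, a sarcomere protein gene by its known role in muscle, also in 29.8% and 3.26%. The Myoz3 window holds 2 regions, whose midpoints lie 1399 and 2048 bp from Myoz3 and nearer to its neighbour Synpo, an actin-associated protein gene, so its opening cannot be assigned to Myoz3. Lrrc15, a membrane protein of mesenchymal cells, was open in 24.4% of the 131 nuclei, the growth factor gene Fgf10 in 19.1% and the homeobox gene Alx4 in 16.0%. Corin, a protease of the papilla known to act on coat colour, was open in 4 nuclei (3.1%), none of them from telogen. Cmklr1 and Dkk2 were open together in 53 nuclei, more than any other pair of markers. The 8 windows summed to 1150 CPM (counts per 1e6 counts of a sum) in anagen, 957 in UVB and 952 in telogen marker-open nuclei, against 126, 149 and 133 CPM in other fibroblast nuclei. In 748 nuclei open at melanocyte genes by the same kind of rule, Cmklr1 was open in 0.668% and Dkk2 in 1.34%, at a median of 917 open regions.

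**Figure D1:**
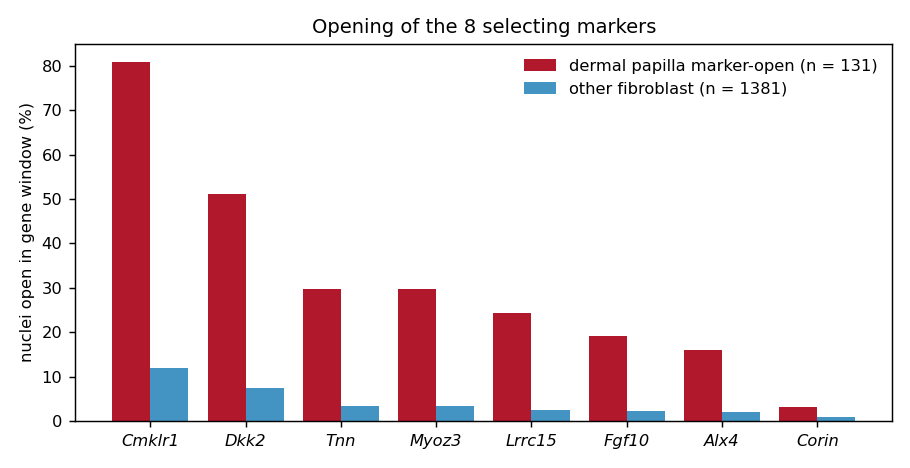
Share of nuclei (%) open in the window of each selecting marker, in the 131 marker-open nuclei and the 1381 other fibroblast nuclei. Bars are shares over all 3 conditions; Cmklr1 and Dkk2 stand highest, at 80.9% and 51.1% of marker-open nuclei, and the difference was built in by the selection.

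The markers differed in how far their signal was spread. In the Myoz3 window, the region that overlaps the edge of Synpo was open in 31 of the 39 nuclei open there, whereas at Dkk2 20 regions were open in 1 or more marker-open nuclei. At Cmklr1, the region chr5:113634320-113634820, 9033 bp inside the gene from its start, was open in 38 marker-open nuclei (29.0%) and in 46 other fibroblast nuclei (3.33%). A further Cmklr1 region at chr5:113628028-113628528 was open in 32 (24.4%) and in 17 (1.23%). At Dkk2, the most often open region was chr3:132103035-132103535, 17993 bp downstream of the start, in 13 (9.92%) and 7 (0.507%). The Lrrc15 region chr16:30271332-30271832 was open in 20 (15.3%) and 15 (1.09%), and the Tnn region chr1:160101012-160101512 in 19 (14.5%) and 18 (1.3%). Coordinates are those of the deposited files (mm10), and distances run from a region's midpoint.

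The promoters of Cmklr1 and Dkk2 are printed because these were the most often open markers and a deposited region covers each start, and those of Col6a3 and Dct because both genes, and a region that overlaps the Dct promoter, passed the tests given further on. The sequences are RefSeq's on GRCm38.p6, from 250 bases before to 50 after the start and read along the gene's strand. Capitals mark matches on either strand to 6 motifs: the AP-1 motif TGANTCA, the homeodomain core TAATTA, the E-box CATGTG, the E-box CACGTG, the GC box GGGCGG and the TATA box TATAAA.
Cmklr1 (chr5:113643554-113643853, minus strand): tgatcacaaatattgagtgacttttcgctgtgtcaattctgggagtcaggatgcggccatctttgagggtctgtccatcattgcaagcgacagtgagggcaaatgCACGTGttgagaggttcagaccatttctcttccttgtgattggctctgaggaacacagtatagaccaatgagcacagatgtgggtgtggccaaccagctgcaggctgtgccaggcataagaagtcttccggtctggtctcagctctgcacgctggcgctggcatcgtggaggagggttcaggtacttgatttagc
Dkk2 (chr3:132085042-132085341, plus strand): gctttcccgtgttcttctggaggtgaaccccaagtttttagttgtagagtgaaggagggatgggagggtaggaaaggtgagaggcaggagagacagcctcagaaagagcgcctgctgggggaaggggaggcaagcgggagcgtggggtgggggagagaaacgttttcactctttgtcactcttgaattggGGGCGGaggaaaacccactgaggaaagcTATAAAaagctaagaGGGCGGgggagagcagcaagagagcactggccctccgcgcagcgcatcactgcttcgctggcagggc
Col6a3 (chr1:90843922-90844221, minus strand): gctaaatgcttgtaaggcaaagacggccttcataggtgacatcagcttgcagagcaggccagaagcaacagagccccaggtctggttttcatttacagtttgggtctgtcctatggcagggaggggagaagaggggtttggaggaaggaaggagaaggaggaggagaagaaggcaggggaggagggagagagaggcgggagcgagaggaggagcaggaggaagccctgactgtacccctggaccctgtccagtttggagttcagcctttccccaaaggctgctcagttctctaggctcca
Dct (chr14:118052197-118052496, minus strand): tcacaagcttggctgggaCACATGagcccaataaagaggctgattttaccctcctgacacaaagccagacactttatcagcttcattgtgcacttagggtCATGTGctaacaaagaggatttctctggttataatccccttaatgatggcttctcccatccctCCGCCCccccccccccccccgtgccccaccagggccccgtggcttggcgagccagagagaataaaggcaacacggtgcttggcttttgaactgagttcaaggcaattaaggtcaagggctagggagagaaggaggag
The Cmklr1 promoter held 1 CACGTG, found in 7.84% of 21263 promoters of the same length. The Dkk2 promoter held 2 GC boxes (46.2% of promoters hold 1 or more) and 1 TATA box (12.6%). The Dct promoter held 2 CATGTG E-boxes (11.5%) and 1 GC box. The Col6a3 promoter held none of the 6 motifs. The AP-1 and homeodomain motifs, found in 6.99% and 4.53% of promoters, were in none of these 4 windows. The promoter of Lrrc15, which is not printed, held 1 AP-1 motif and 1 GC box. The region over the Cmklr1 start was open in 9 marker-open nuclei (6.87%) and 5 other fibroblast nuclei (0.362%), and the region over the Dkk2 start in 10 (7.63%) and 8 (0.579%).

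By number of open regions most of the nuclei were at the threshold, while the median share was 10.34 times the pooled one. Exactly 3 marker regions were open in 82 of them, 4 in 26, and the highest number was 9. By number of marker genes, 11 nuclei were open at 1 gene, 54 at 2, 52 at 3, 12 at 4 and 2 at 5. Just inside the rule, the lowest share was 3.15 times the pooled one, in a nucleus with 8021 open regions. Just outside it, 5 nuclei had 3 or more open marker regions with a share of at most 2.83 times, and 219 nuclei reached 3 times the pooled share with only 2 open regions. Col1a2 or Pdgfra was open in 82 of the 131 (62.6%), and in 35.2% of those 219. Among the nuclei open at a single marker gene, 27.3% were open at Col1a2 or Pdgfra, against 61.1% of those open at 2 marker genes and 75.0% of those open at 4. The median number of open regions was 1443, 3291 and 4333 in these groups and 2142 in the 219 nuclei, and the part of depth in these shares was not tested. The region over the Col1a2 start was open in 24.4% of marker-open nuclei and in 24.1% of other fibroblast nuclei, and the other fibroblast nuclei had been chosen on that gene and Pdgfra.

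The marker-open nuclei were 1.01% of anagen nuclei (exact Clopper-Pearson 95% interval 0.717 to 1.39), 1.24% of UVB nuclei (0.983 to 1.53) and 0.588% of telogen nuclei (0.304 to 1.02). Of marker-open and other fibroblast nuclei together they were 6.74%, 11.0% and 5.61% in that order. These intervals cover counting error only, and with 1 sample per condition there is no test between conditions. In UVB, 72 of the 81 came from the tag number 19, a part of the barcode name that the labels do not explain, which holds 2934 of the 6553 UVB nuclei. The share was 2.45% within that tag number and 0.249% (0.114 to 0.472) in the other UVB nuclei, so that UVB lay above telogen with it and below telogen without it. In anagen, tag number 3 held 26 of the 38, and in telogen tag number 8 held 6 of the 12. With each nucleus thinned to 1000 open regions, 4 anagen, 9 UVB and 6 telogen nuclei passed, which is 0.237%, 0.291% and 0.649%, and telogen was then the highest. No order of the conditions can be read from these shares.

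**Figure D2:**
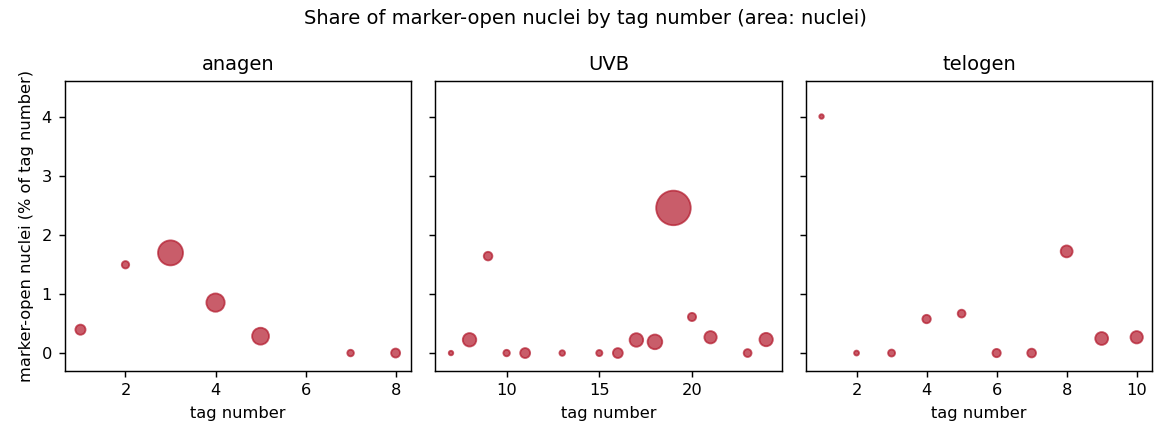
Share of marker-open nuclei (%) within each tag number that holds 50 or more nuclei, by condition; the area of a point follows its number of nuclei. The large UVB point is tag number 19, at 2.45%, and the UVB tag numbers 8, 17, 18, 21 and 24 lie between 0.189% and 0.267%. UVB tag number 9 is at 1.639% (3 of 183 nuclei) and tag number 20 at 0.61% (1 of 164). The telogen point at 4.0% is 2 of 50 nuclei.

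Genes that the rule did not use were examined for the label. General fibroblast genes were open in these nuclei. The 15 general fibroblast genes summed to 2300 CPM in anagen, 2690 in UVB and 2510 in telogen marker-open nuclei, against 2130, 2170 and 1670 CPM in other fibroblast nuclei, 3070, 2810 and 2830 CPM in the stricter comparison and 808, 681 and 646 CPM in all remaining nuclei. The collagen gene Col1a1 was open in 60.3% of the 131 nuclei, 37.4% of other fibroblast nuclei and 56.5% of the stricter comparison, and Col5a1 in 55.0%, 36.7% and 53.8%. From other lists, the mesenchymal transcription factor gene Tbx15 was open in 70.2%, 36.1% and 55.9%, and the hedgehog effector gene Gli2 in 76.3%, 40.8% and 62.4%. Depth differed between the classes in the same direction, and its part in these shares was not tested. Other general fibroblast genes were more often open in the stricter comparison, such as Dcn (23.7%, 16.7% and 29.0%) and Mmp2 (34.4%, 26.7% and 36.0%). Of 14 genes of this list tested against the stricter comparison, 4 had a positive log2 fold change. Their median was -0.31, beside -0.03 over all genes. By the 3-region and 3-times rule applied to the general fibroblast list, 36.64% of marker-open nuclei passed, against 23.61% of other fibroblast nuclei and 35.48% of the stricter comparison.

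Papilla genes outside the rule gave no difference past the test. The 32 papilla genes outside the rule summed to 1510, 1730 and 1290 CPM in anagen, UVB and telogen marker-open nuclei, 1450, 1380 and 1190 CPM in other fibroblast nuclei, and 1470, 1470 and 1640 CPM in the stricter comparison. Sox2, a transcription factor of papillae of certain hair types, had 1 count in anagen, 6 in UVB and 2 in telogen, and was open in 4.58% of marker-open nuclei and 1.81% of other fibroblast nuclei. Crabp1 was open in 2.29% and 0.507%, Wif1 in 11.5% and 3.91%, Trps1 in 39.7% and 20.6%, and Lef1, the Wnt effector, in 4.58% and 7.46%. By the 3-region rule applied to this list, 2.29% of marker-open nuclei passed, against 3.19% of other fibroblast nuclei. Since no papilla gene outside the 8 markers passed the test, the nuclei are called marker-open here; this does not show that they lack papilla nuclei.

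For markers of other cell types, melanocyte genes summed to 823, 674 and 523 CPM in anagen, UVB and telogen marker-open nuclei. The remaining nuclei were at 2950, 2210 and 812 CPM and other fibroblast nuclei at 1820, 1160 and 512 CPM. The stricter comparison was at 831, 779 and 512 CPM, so the low level was not particular to the marker-open nuclei. Keratinocyte genes summed to 341, 334 and 188 CPM in marker-open nuclei, against 451, 869 and 1010 CPM in the remaining nuclei and 236, 364 and 288 CPM in the stricter comparison. Myeloid genes summed to 128 CPM in anagen, 93.4 in UVB and 804 in telogen marker-open nuclei, against 108, 80.3 and 247 CPM in other fibroblast nuclei, and 2 of the 12 telogen nuclei passed the rule for that list. Of the lineage genes, Ptprc, the pan-leukocyte marker, was at 188 CPM in telogen marker-open nuclei. By the 3-region rule, 25.19% of marker-open nuclei passed for the T cell list. The shares were 7.31% of other fibroblast nuclei, 14.25% of the stricter comparison and 1.47% of the remaining nuclei, and the part of depth in them was not tested. Of that list of 10 genes, Thy1 and Bcl11b, which fibroblasts also use, were open in 35.1% and 65.6% of the marker-open nuclei. The T cell receptor genes Cd3e and Cd3g were among the 3 genes at 0, and no gene of the list passed the class test.

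**Figure D3:**
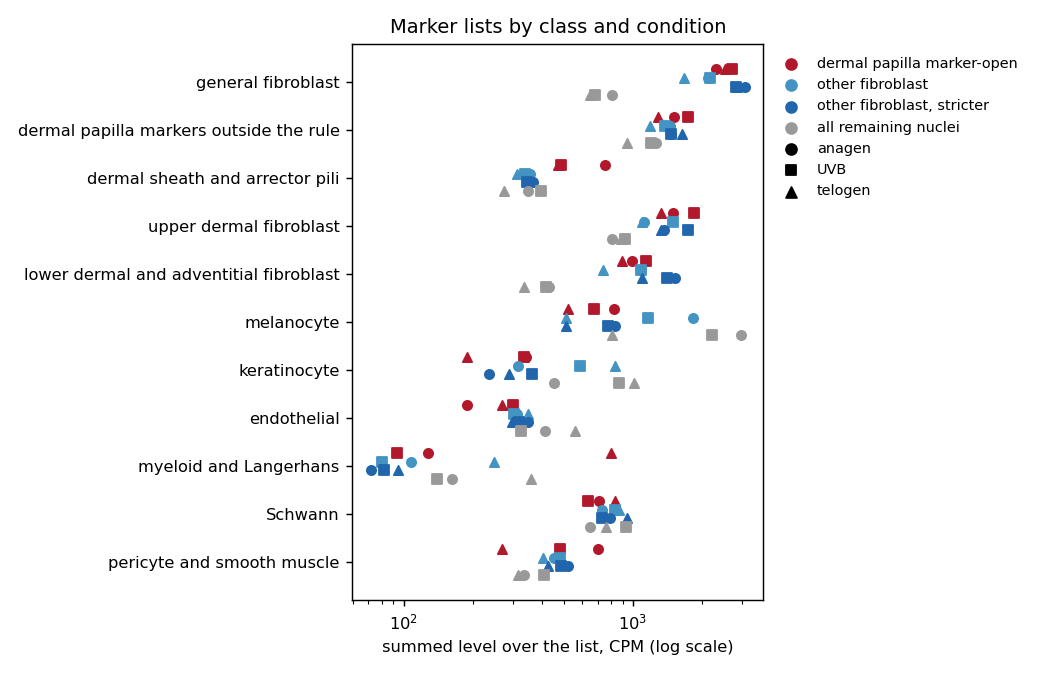
Summed level of each marker list (CPM, log scale) in marker-open, other fibroblast, stricter fibroblast and all remaining nuclei; symbols are the 3 conditions. General fibroblast genes are at 2300 to 2690 CPM in marker-open nuclei and at 646 to 808 CPM in the remaining nuclei, and the papilla list outside the rule overlaps between marker-open and other fibroblast nuclei.

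The class difference was tested on 6 sums, marker-open and other fibroblast nuclei in each condition, with edgeR's quasi-likelihood test, the condition as a block and Benjamini-Hochberg adjustment. The 3 pools, each of another condition, are the replicates of the class difference. The 130 regions in the windows of the markers, Col1a2 and Pdgfra were left out. The collagen gene Col6a3 and the membrane protein gene Dysf were higher in marker-open nuclei, and 8 genes, among them the melanocyte genes Kit, Pax3 and Dct, were lower. Of 12405 genes, 2 were higher (0.0161%) and 8 lower (0.0645%) at an adjusted p under 0.05, which is 0.0806% in either direction. At an unadjusted p under 0.05, 296 were higher (2.39%) and 405 lower (3.26%).

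Col6a3, a chain of the microfibrillar collagen VI, was at 341 CPM in anagen, 282 in UVB and 281 in telogen marker-open nuclei, against 136, 156 and 106 CPM in other fibroblast nuclei. The log2 fold change of Col6a3 was 1.15 (SE 0.24, edgeR adjusted p = 0.0343). The region over its start was open in 17 marker-open nuclei (13.0%) and 61 other fibroblast nuclei (4.42%), and the region chr1:90838070-90838570 inside the gene in 18 (13.7%) and 54 (3.91%). Dysf, which encodes the membrane repair protein dysferlin, was at 158, 166 and 268 CPM in anagen, UVB and telogen marker-open nuclei, against 54.5, 106 and 39.0 CPM in other fibroblast nuclei. It was higher in all 3 conditions by a log2 fold change of 1.44 (SE 0.3, edgeR adjusted p = 0.0442). Its most often open region, chr6:84142436-84142936, lay 123300 bp inside the gene and was open in 16 (12.2%) and 32 (2.32%).

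Among the 8 lower genes were regulators and enzymes of pigment cells. Kit, the receptor that melanoblasts need, was open in 3 of the 131 nuclei (2.29%) and in 11.4% of other fibroblast nuclei. Its level was 4.27, 10.2 and 0.0 CPM in anagen, UVB and telogen marker-open nuclei, against 168, 56.5 and 13.0 CPM in other fibroblast nuclei, a log2 fold change of -3.36 (SE 0.61, edgeR adjusted p = 0.00932). Kit had 1, 6 and 0 counts in the marker-open sums and passed the low-count filter through the other fibroblast sums. Its adjusted p-value therefore does not support a class difference. Pax3, which acts upstream of Mitf in pigment cells, was at 42.7, 17.0 and 0.0 CPM, against 258, 151 and 38.0 CPM (log2 fold change -2.88, SE 0.39, edgeR adjusted p = 0.000158). Dct, the melanin-pathway enzyme whose promoter drives the reporter, was at 25.6, 45.8 and 13.4 CPM, against 259, 205 and 66.1 CPM (log2 fold change -2.51, SE 0.35, edgeR adjusted p = 0.000172). The others were the growth factor receptor gene Met (-2.44), Tmem108 (-2.31), the formin gene Fmn1 (-1.7), the transcription factor gene Sox5 (-1.54) and the phosphatase gene Ptprj (-1.54). Among other fibroblast nuclei, 2.82% passed the melanocyte rule, against 0.76% of marker-open nuclei and 1.08% of the stricter comparison. With nuclei passing it left out of both classes, no gene was higher, and Col6a3 and Dysf each had an adjusted p of 0.0506 in edgeR.

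**Figure D4:**
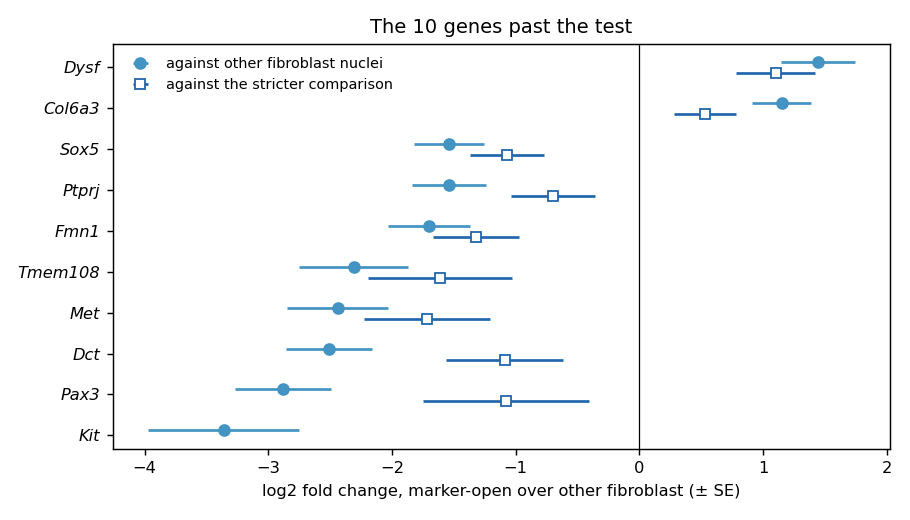
Log2 fold change (± SE, 3 pools per class) of marker-open over other fibroblast nuclei for the 10 genes past the test, against both comparisons. Each value keeps its sign against the stricter comparison, with Col6a3 at 0.53 and Dysf at 1.1, and Kit was not tested there.

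Against the stricter comparison, edgeR called 0 of 9708 genes, with 148 higher (1.52%) and 224 lower (2.31%) at an unadjusted p under 0.05. Col6a3 was then at a log2 fold change of 0.53 (adjusted p = 0.999) and Dysf at 1.1 (adjusted p = 0.937). Col6a3 lost its call without anagen (1.03, edgeR adjusted p = 0.981), without UVB (1.29, 0.375) and without UVB tag number 19 (1.35, 0.363), and Dysf without anagen (1.41, 0.529) and without that tag number (1.65, 0.311). Without the anagen sums 0 genes were higher and 1 lower; without telogen 29 were higher and 34 lower. Without UVB tag number 19, 0 were higher and 4 lower.

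Of the 22 tested papilla genes outside the rule, none passed the test; 15 had a positive log2 fold change and the median was 0.13, beside -0.07 over all genes, and against the stricter comparison it was -0.07 beside -0.03. The largest positive values were those of the Wnt inhibitor gene Wif1 (0.94, edgeR adjusted p = 0.98), the leptin receptor gene Lepr (0.73) and Trps1, a zinc finger gene (0.63). The lowest was that of Lef1 (-1.36, edgeR adjusted p = 0.913). The growth factor gene Fgf7 was at 0.2, the BMP ligand gene Bmp4 at -0.13, the proteoglycan gene Vcan at -0.02 and Enpp2, a lipid-signal enzyme gene, at -1.14. Genes of the dermal sheath and arrector pili had a median of 0.9 over 7 tested, with none past the test. Among these, Mylk, the kinase of smooth muscle myosin, was open in 44.3% of marker-open nuclei and 21.9% of other fibroblast nuclei (0.98, edgeR adjusted p = 0.147), and the integrin gene Itga8 in 32.1% and 11.1% (1.12, edgeR adjusted p = 0.354). The collagen gene Col11a1 was at 1.53 and the matrix gene Npnt at -1.51 (edgeR adjusted p = 0.929 for both). Acta2, the defining smooth muscle actin gene, was open in 6.87% of marker-open nuclei and 3.11% of other fibroblast nuclei. By the 3-region rule, 10.69% of marker-open nuclei passed for the sheath list, against 2.9% of other fibroblast nuclei and 4.03% of the stricter comparison. For the pericyte and smooth muscle list 11.45% passed, against 4.78% and 5.65%, and the median log2 fold change over its 10 tested genes was 0.01. These shares move with depth, and the part of depth in them was not tested.

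The signalling lists gave no call. Of 24 tested Wnt genes 14 were positive with a median of 0.12, and the Wnt inhibitor gene Sfrp1 was at -1.31, the R-spondin receptor gene Lgr4 at -1.08 and the R-spondin gene Rspo1 at 0.85. Of 14 tested FGF genes 8 were positive (median 0.08), with the ligand gene Fgf9 at -1.94 and the receptor gene Fgfr3 at 0.66. Of 22 BMP and TGF-beta genes 11 were positive (median -0.02), with the ligand subunit gene Inhba at 0.5 and the receptor gene Bmpr1a at -0.46. Of 12 hedgehog genes 9 were positive (median 0.31), with Gas1, a co-receptor gene, at 0.54 and Disp1, needed for ligand release, at -0.51. Foxd1, a forkhead gene in the hedgehog list, had the largest value there, 2.43 (SE 0.93, edgeR adjusted p = 0.6). It was at 25.6, 25.5 and 26.8 CPM in anagen, UVB and telogen marker-open nuclei and 5.29, 4.63 and 4.0 CPM in other fibroblast nuclei. Foxd1 thus passed the low-count filter through the marker-open sums, so its value and its place among the 9 positive genes do not support a class difference. Of 13 tested niche signals 6 were positive (median -0.03), with Kitl, the ligand of Kit, at 0.11, the chemokine gene Cxcl12 at -1.84 and the growth factor gene Igf1 at -0.16. Of 31 mesenchymal transcription factor genes, Sox5 alone passed the test; Tfap2b was at -2.09 (edgeR adjusted p = 0.676), Sox6 at -1.23 (0.0822), Hoxa9 at 1.09 and Runx1 at 0.95 (edgeR adjusted p = 0.246 for both), and Prrx1 at 0.87. Of 38 matrix genes 29 were positive, with a median of 0.18 against other fibroblast nuclei and -0.08 against the stricter comparison, and Col6a3 alone passed; the companion chain gene Col6a1 was at 1.53 (edgeR adjusted p = 0.584). The control list of 12 tested housekeeping genes had a median of 0.05, immediate early genes 0.18, interferon genes 0.05 and p53 target genes 0.03, with no call in any of them.

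At the level of single regions, 3 of 18546 were higher (0.0162%) and 1 was lower (0.00539%), which is 0.0216% in either direction. The 3 higher regions passed the low-count filter through the marker-open sums, and none was higher with no filter beyond 10 counts. At an unadjusted p under 0.05 in edgeR, 358 were higher (1.93%) and 511 lower (2.76%). The region chr2:151826663-151827163, 15734 bp upstream of Rspo4, an R-spondin that amplifies Wnt signals, was open in 3 of 38 anagen (7.89%), 7 of 81 UVB (8.64%) and 1 of 12 telogen (8.33%) marker-open nuclei. It was open in 2 of 1381 other fibroblast nuclei (0.145%), both from UVB, and in 29 of all 12348 nuclei. The log2 fold change was 5.02 (SE 0.88, edgeR adjusted p = 0.000315), a fitted value that depends on the prior count because the anagen and telogen sums of other fibroblast nuclei were 0. The window of Rspo4 itself had 11 counts in marker-open nuclei and was not tested.

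The region chr9:41098088-41098588 within Ubash3b, a phosphatase gene, was open in 13.2% of anagen, 4.94% of UVB and 8.33% of telogen marker-open nuclei, against 0.19%, 0.459% and 0.495% of other fibroblast nuclei (log2 fold change 3.7, SE 0.79, edgeR adjusted p = 0.0303). The region chr15:7406282-7406782, 7788 bp upstream of the matrix protein gene Egflam, was open in 7.89%, 3.7% and 16.7%, against 0.19%, 0.613% and 0.495% (log2 fold change 3.52, SE 0.77, edgeR adjusted p = 0.0358). These 3 regions rest on 8 to 11 marker-open nuclei each. Their counts in the anagen, UVB and telogen sums of other fibroblast nuclei were 0, 4 and 0 near Rspo4, 2, 5 and 2 in Ubash3b, and 2, 7 and 2 near Egflam. They thus passed the low-count filter through the marker-open sums, and neither their number nor their adjusted p-values support a class difference. With no filter beyond 10 counts in all, 133731 regions were tested and none was higher in edgeR, with 119 higher at an unadjusted p under 0.05. The lower region, chr14:118052265-118052765, overlaps the Dct promoter printed above and was open in 6 marker-open nuclei (4.58%), 240 other fibroblast nuclei (17.4%) and 28 of the stricter comparison (7.53%), a log2 fold change of -3.14 (SE 0.47, edgeR adjusted p = 3.93e-06). It had 2, 12 and 0 counts in the anagen, UVB and telogen marker-open sums and passed the low-count filter through the other fibroblast sums. Its adjusted p-value thus does not support a class difference either. Regions that did not pass included 1 that lay 2046 bp from Crabp2, a retinoic acid binding protein gene (10 marker-open nuclei, 7.63%, and 9 other fibroblast nuclei, 0.652%; edgeR adjusted p = 0.107), and 1 that lay 2648 bp from Rasl11b (22, 16.8%, and 34, 2.46%; edgeR adjusted p = 0.145). Against the stricter comparison 0 of 9746 regions passed in edgeR, with 89 higher and 163 lower at an unadjusted p under 0.05; none of the 4 regions had enough counts to be tested there. Without telogen none of the 3 higher regions passed, and without anagen the Ubash3b and Egflam regions did not.

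**Figure D5:**
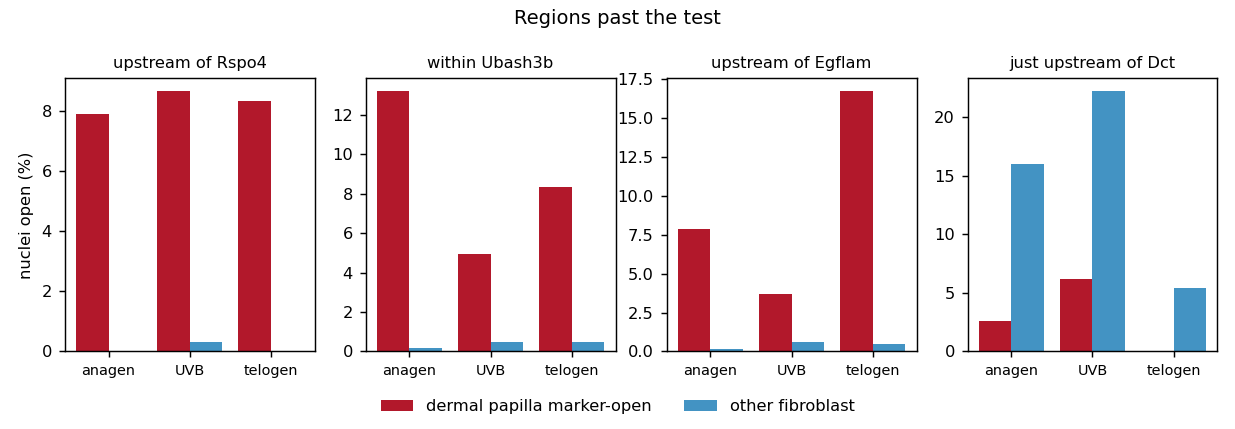
Share of nuclei (%) open at the 4 regions past the test, in marker-open and other fibroblast nuclei of each condition; bars have no replicate error, and the panels differ in scale. The region upstream of Rspo4 is open in 7.89%, 8.64% and 8.33% of marker-open nuclei, and the region just upstream of the Dct start stands higher in other fibroblast nuclei of all 3 conditions. The other 3 regions passed the low-count filter through the marker-open sums, and the Dct region through the other fibroblast sums.

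Conditions within the marker-open nuclei could not be tested, with 1 sample each. Ratios of CPM are given with exact conditional binomial 95% intervals, which cover counting error only and are too narrow because 61.0% of the entries above 0 were the value 2. A gene is called where it had 30 or more counts over both conditions, a ratio of 2 or more in either direction and an interval that leaves out 1. Anagen over telogen called 255 genes higher (9.5%) and 244 lower (9.09%) of 2684; in other fibroblast nuclei the percentages were 4.98% and 7.65%. UVB over telogen called 339 higher (5.52%) and 604 lower (9.84%), against 3.36% and 6.73% in other fibroblast nuclei. UVB over anagen called 504 higher (6.96%) and 458 lower (6.32%), against 4.07% and 3.97%. Scaled on housekeeping gene ends, the calls were 447 higher and 127 lower for anagen over telogen, 455 and 458 for UVB over telogen, and 341 and 670 for UVB over anagen. Each pair of these comparisons shares the nuclei of 1 condition. With nuclei thinned to 1000 open regions, 12 higher and 11 lower genes were left in anagen over telogen, 36 and 69 in UVB over telogen, and 136 and 101 in UVB over anagen. Without tag number 19, UVB over telogen called 57 higher and 45 lower, and UVB over anagen 172 and 285.

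Alpl, alkaline phosphatase, the classical stain of the papilla, was open in 6 of 38 anagen nuclei (15.8%), 28 of 81 UVB nuclei (34.6%) and 0 of 12 telogen nuclei, which allows a share of up to 25.0%. Its level was 38.5 CPM in anagen, 204 in UVB and 0.0 in telogen. UVB was 5.3-fold anagen (interval 2.7 to 11.9), where other fibroblast nuclei had a ratio of 1.0. With telogen set to a floor of 3 counts, UVB was 5.07-fold telogen, a value without counting error, where other fibroblast nuclei had 2.63. Within UVB, Alpl was open in 27 of the 72 nuclei of tag number 19 (37.5%, 220 CPM) and in 1 of the other 9 (11.1%, 38.4 CPM from 2 counts). The UVB counts thus came almost wholly from tag number 19, and those 2 counts give no level for the rest of UVB. The Wnt ligand gene Wnt5a, in UVB over anagen, was at 0.329 (0.169 to 0.631), with 0.796 in other fibroblast nuclei. The papilla gene Pappa2 was at 2.67 (1.06 to 8.66) in anagen over telogen. Over the papilla list outside the rule, 10 genes had enough counts in UVB over telogen, 2 were called higher (Alpl and Bmp6) and none lower, beside 5.52% and 9.84% over all genes. Bmp6, like Alpl, was open in 0 of 12 telogen nuclei, so both ratios rest on the telogen floor of 3 counts.

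Of 16 immediate early genes with enough counts in anagen over telogen, 5 were called lower and none higher, beside 9.09% and 9.5% over all genes, and the median log2 ratio was -0.68. For the housekeeping genes, which serve as a control, that median was -0.63 with none called, and in other fibroblast nuclei the medians were -0.44 for immediate early and -0.17 for housekeeping genes. The AP-1 gene Junb was at 265 CPM in anagen and 631 CPM in telogen (ratio 0.42, 0.283 to 0.627; 0.733 in other fibroblast nuclei). Fos was at 89.7 CPM in anagen and 309 CPM in telogen (0.291, 0.153 to 0.549), and the nuclear receptor gene Nr4a2 at 85.5 and 429 CPM (0.199, 0.108 to 0.359). Nr4a2 was open in 23.7% of anagen and 66.7% of telogen marker-open nuclei.

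Counts of 0 were set to a floor of 3, so a gene with 1 telogen count can rank above a gene with 0. On that scale the largest ratio of anagen over telogen was that of Ptprg, a receptor phosphatase gene, at 22.0 (3.81 to 880.0). It had 69 counts in 22 anagen nuclei and 1 count in telogen. Hic1, a transcriptional repressor of mesenchymal progenitors, was at 11.5 (1.93 to 465.0), with 36 counts and 1. In other fibroblast nuclei Ptprg was at 2.29 and Hic1 at 2.1. In UVB over telogen, Spi1, the myeloid transcription factor, was at 0.0969 (0.0433 to 0.212). It had 13 counts in 6 UVB nuclei and 17 counts in 3 telogen nuclei, of which 11 were in 1 nucleus. The telogen nuclei are also those with 804 CPM of myeloid genes, whose part in this comparison was not tested. In UVB over anagen, the cardiac myosin genes Myh7 and Myh6 were at 0.00829 (0.000206 to 0.0484) and 0.0114 (0.00135 to 0.0426), and the growth factor binding protein gene Igfbp4 at 0.151 (0.068 to 0.311). In other fibroblast nuclei Myh7 was at 0.0257 and Myh6 at 0.0235, while Igfbp4 was at 0.741 there. Of Myh7 counts 77.8% lie in regions shared with another gene, and of Myh6 counts 41.7%.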

How the data were processed

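The authors deposited counts of transposase fragments per region and nucleus, 1 matrix per condition over 315694 regions of 500 bp. The submitters' processing notes list MACS2, Bowtie2 and SAMtools without versions, and the build mm10. How counts were made, which nuclei were kept and whether doublets were removed was not given in the sources used here. A doublet caller was not run. No count is above 4, and 61.0% of entries above 0 are 2 and 30.9% are 1. UVB nuclei are not mapped to the 2 technical replicates, so UVB is 1 sample.

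The nuclei and gene lists were chosen with earlier results of these data known. Gene windows are RefSeq bodies (GRCm38.p6) plus 2000 bp; 18019 of 21900 genes hold a region and 3.69% of regions lie in more than 1 gene. Counts were summed per class and condition and tested with edgeR 4.0.16 (TMM, low-count filter, Benjamini-Hochberg) in R 4.3.3, with DESeq2 1.42.0 as an alternative; Python 3.11.15 and scipy 1.17.1 did the rest. On simulated counts for the 12405 genes of the class comparison, 17% of 2-fold and 58% of 4-fold changes were recovered, and 1 of 76 calls was an unchanged gene. The simulation gave all genes the same dispersion (0.061) and each gene the same level in every condition. It held no effect of tag number, so its rate of false calls need not hold for these data. P-values measure how the class difference varied over 3 pools of mice, each of another condition, with the spread moderated across genes. No condition had a second pool. Named genes are the 8 markers; of each list, members past the test, among the 4 largest absolute fold changes, or named for their role; the called genes (up to 15 higher and 10 lower) and regions (8 and 4); and genes among the 6 largest and 6 smallest called ratios per condition comparison. The Crabp2 and Rasl11b regions were named after their values were seen.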

Additional observations from a re-analysis of the deposited data

How the results depend on the processing

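The comparisons rest on 131 marker-open nuclei, of which only 12 came from telogen. Genes higher in marker-open nuclei numbered 2 in the main test. The count was 7 with DESeq2 size factors, 8 with no filter on low counts, 6 at a share of 5 times, 4 with every deposited barcode and 1 with open regions counted once. It was 0 with no condition block, with 4 or more open regions, thinned to 1000 open regions, without nuclei above 3 times the median count, against the stricter comparison, without melanocyte-open nuclei, over gene ends alone, without UVB tag number 19, for members open at Col1a2 or Pdgfra against the stricter comparison, for the stricter comparison thinned, and in DESeq2. Genes lower numbered 8, and 28 with no filter, 0 with no condition block, 3 with 4 or more open regions, 1 thinned, 0 without deep nuclei, 0 against the stricter comparison in all 3 forms, 1 over gene ends, 4 without UVB tag number 19, 5 with tag number 19 only and 2 in DESeq2. Leaving out 1 condition at a time gave 0 to 29 genes higher and 1 to 34 lower, and 0 to 30 regions higher and 1 lower. Regions higher numbered 0 with no filter beyond 10 counts, and no region was higher or lower (0 and 0) against the stricter comparison. Over all pairs of a called gene and an alternative, the call remained in 88 and was lost in 99; for regions it remained in 10 and was lost in 8, and none reversed. The gene tests with and without tag number 19, the share within it, and the settings with 2 or more marker genes, with members open at Col1a2 or Pdgfra and with the thinned stricter comparison were chosen after seeing the data.

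The share of anagen nuclei was 0.453% with 4 or more open regions, 0.237% thinned, 0.598% without deep nuclei and 0.586% for members open at Col1a2 or Pdgfra. The share of UVB nuclei was 0.443%, 0.291%, 0.407% and 0.809% in these 4 settings, 0.9% over gene bodies alone, 0.249% without tag number 19 and 2.45% with it only. The share of telogen nuclei was 0.147% with 4 or more open regions.

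With housekeeping gene ends as the scale, anagen over telogen called 447 genes higher and 127 lower. Thinned, the calls were 12 higher and 11 lower in anagen over telogen, 36 and 69 in UVB over telogen, and 136 and 101 in UVB over anagen. Over gene ends they were 43 and 80, 64 and 372, and 299 and 290 in the same order. Without tag number 19, UVB over telogen called 57 higher and 45 lower and UVB over anagen 172 and 285. Where a count moved, the cause was not tested beyond the fewer nuclei or regions that a setting leaves. The class test sets both classes against each other within each condition. Conditions could not be paired by replicate number, because UVB nuclei are not mapped to the samples that carry the numbers, and the groups share a single number.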
